A study of Caenorhabditis elegans with 2 samples.

Results

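Small nucleolar RNA (snoRNA) genes that stand outside protein-coding genes made up 124 of the 346 snoRNA genes annotated on the nuclear chromosomes of Caenorhabditis elegans, among 46890 nuclear genes in all. They were chosen as the genes of biotype snoRNA whose interval overlapped no protein-coding gene on either strand, and the other 222 snoRNA genes, which do overlap such a gene, served as the contrast. The 124 genes were 62 to 344 bases long with a median of 136.5, and 16 of them overlapped another non-coding gene or a pseudogene. The measurement was chromatin immunoprecipitation with sequencing of Y116A8C.19, a protein with a C3H1-type domain per the RefSeq annotation, tagged at its C-terminal end with GFP and FLAG and pulled down with an antibody against GFP.

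There was 1 group with 2 biological replicates, both of strain OP532, which carries unc-119(tm4063) on chromosome III and the transgene insertion wgIs532. The animals were hermaphrodite L1 larvae, 6 hours past synchronization by starvation after bleaching, and both replicates therefore share the unc-119 mutation and the tagged protein. No second condition was measured, so the comparisons lie between gene classes and between the lists of regions. Whole larvae were used, so stronger binding in few cells and weaker binding in many cells cannot be told apart.

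The authors' lists give regions with a summit (the position of the strongest signal), a signal value and a q-value. The pooled list, called on both replicates together, held 2689 regions, the list thresholded by the irreproducible discovery rate (IDR) held 198, and the lists of replicate 1 and replicate 2 held 22595 and 22358. The pooled and replicate lists are named by the authors as holding peaks and background, and 320 pooled regions had a q of 0.05 or lower. The 198 IDR regions were the 198 pooled regions with the largest signal, so the pooled, IDR and replicate lists are not independent of each other. Regions were ranked within a list by signal, with rank 1 the strongest, and signals of different lists were not compared. A gene was said to have a region where a summit lay from 1000 bp upstream to 200 bp downstream of its annotated 5′ end, and the best-ranked such region was taken. Distances are in bp from that end and negative upstream. Read depth is unknown, and intervals are exact (Clopper-Pearson) 95% intervals that cover the counting error of genes only.

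snoRNAs are short nuclear RNAs that pair with other RNAs, above all ribosomal RNA, and guide the chemical modification of chosen bases. Box C/D snoRNAs guide ribose methylation through the methyltransferase fibrillarin, and H/ACA snoRNAs guide the change of uridine to pseudouridine. Many snoRNAs are cut out of introns of host genes and are made from the host's promoter, whereas a gene that stands alone needs a promoter of its own. In animals the small nuclear RNA (snRNA) genes are read from short promoters whose proximal sequence element is bound by the complex SNAPc.

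A pair of short words at a fixed spacing recurred just upstream of snoRNA genes, and the sequences below show it on the strand of each gene. They come from the RefSeq genome of WBcel235 (ce11), and each runs from base -90 to base -31 before the gene, where 0 is the first base of the gene. Capitals mark CGGAAC and TGTCGG, which are 8 bases apart. The first 7 genes stand outside protein-coding genes, and among these T26A8.6 had a pooled region. The last 3 lie inside protein-coding genes and all had a pooled region. The inside genes C05H8.3 and Y48A6C.10, not printed, also had the exact pair but no region in any list. Over all genes with the exact pair, 4 of 12 outside and 3 of 5 inside genes had a pooled region.
T26A8.6, chrIV:8428770-8428829, minus strand: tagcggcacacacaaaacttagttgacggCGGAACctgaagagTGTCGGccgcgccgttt
C16D9.10, chrV:8247992-8248051, minus strand: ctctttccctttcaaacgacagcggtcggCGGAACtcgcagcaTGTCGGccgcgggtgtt
F43A11.8, chrV:11585392-11585451, minus strand: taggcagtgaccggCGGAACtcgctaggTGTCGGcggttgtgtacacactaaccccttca
T08B6.64, chrIV:4880881-4880940, minus strand: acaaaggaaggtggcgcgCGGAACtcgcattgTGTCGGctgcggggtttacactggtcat
W03B1.17, chrIV:4347542-4347601, plus strand: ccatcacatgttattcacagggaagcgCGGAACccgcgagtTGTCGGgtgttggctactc
WBGene00220222, chrIV:15649391-15649450, minus strand: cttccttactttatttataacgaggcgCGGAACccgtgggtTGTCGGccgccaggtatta
Y67A10A.14, chrIV:14327152-14327211, minus strand: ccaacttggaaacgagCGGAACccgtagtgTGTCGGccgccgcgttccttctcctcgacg
C16D9.11, chrV:8229000-8229059, minus strand: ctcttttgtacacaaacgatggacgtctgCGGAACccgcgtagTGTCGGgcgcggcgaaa
smy-2, chrIV:9511497-9511556, minus strand: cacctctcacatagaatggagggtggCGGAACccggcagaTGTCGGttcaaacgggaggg
Y55F3BR.9, chrIV:867164-867223, minus strand: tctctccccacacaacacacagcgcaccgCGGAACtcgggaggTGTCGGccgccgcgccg

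The summit windows of 3 of the 4 outside genes with an IDR region follow, 151 bases centred on the pooled summit and read on the strand of the snoRNA gene. They are shown because the strongest regions at these genes differ in sequence. Capitals in the Y53F4B.47 window mark the same pair of words with 1 mismatch. Neither word stood on this strand in the windows of W06H8.17 and T27A8.8.
Y53F4B.47, chrII:15025865-15026015, minus strand: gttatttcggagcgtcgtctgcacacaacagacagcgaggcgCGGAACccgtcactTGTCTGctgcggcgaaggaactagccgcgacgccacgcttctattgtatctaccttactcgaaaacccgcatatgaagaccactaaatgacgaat
W06H8.17, chrV:6227703-6227853, minus strand: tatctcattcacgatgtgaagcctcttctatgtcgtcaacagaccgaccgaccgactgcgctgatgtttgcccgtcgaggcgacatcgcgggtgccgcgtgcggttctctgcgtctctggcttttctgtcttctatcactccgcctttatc
T27A8.8, chrX:16056466-16056616, plus strand: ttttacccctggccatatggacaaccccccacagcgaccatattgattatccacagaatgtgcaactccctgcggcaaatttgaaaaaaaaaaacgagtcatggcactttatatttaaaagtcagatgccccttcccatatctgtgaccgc

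Outside snoRNA genes had a region of Y116A8C.19 more often than genes in general, in every list. In the pooled list 26 of 124 had a region (21.0%, interval 14.2 to 29.2%), through 26 different regions, against 5.36% of all nuclear genes. The share was 6.66% for protein-coding genes, 13.4% for tRNA genes and 8.53% for snRNA genes. It was 10.3% for miRNA genes and 3.48% for piRNA genes, the germ line small RNAs. The interval of the outside genes overlapped those of the tRNA (10.8 to 16.4%), snRNA (4.33 to 14.7%) and miRNA genes (6.93 to 14.7%). In the IDR list 4 of 124 had a region (3.23%, interval 0.886 to 8.05%), against 0.642% of all nuclear genes, 1.18% of protein-coding genes, which lies within that interval, and 3.88% of snRNA genes, which is higher. Pooled regions with a q of 0.05 or lower gave 8 outside genes (6.45%, interval 2.83 to 12.3%), against 1.00% of all nuclear genes, so the other 18 members with a pooled region rest on regions of a higher q.

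In the replicate lists, which hold much background, outside genes again had a region more often than all nuclear genes. In replicate 1, 60 outside genes had a region (48.4%) against 28.9% of all nuclear genes, and in replicate 2, 52 did (41.9%) against 29.2%. Both replicate lists gave a region for 35 outside genes (28.2%, interval 20.5 to 37.0%) against 11.9% of all nuclear genes, 12.9% of protein-coding genes and 22.5% of tRNA genes. The interval of the outside genes thus overlapped that of the tRNA genes (19.3 to 26.1%). The members divide into 26 genes with a pooled region, 11 with a region of both replicates and none of the pooled list, 24 with a region of replicate 1 alone, 16 with one of replicate 2 alone, and 47 in no list. No test between gene classes was made, since neighbouring genes can share a region and genes are not replicates.

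**Figure D1:**
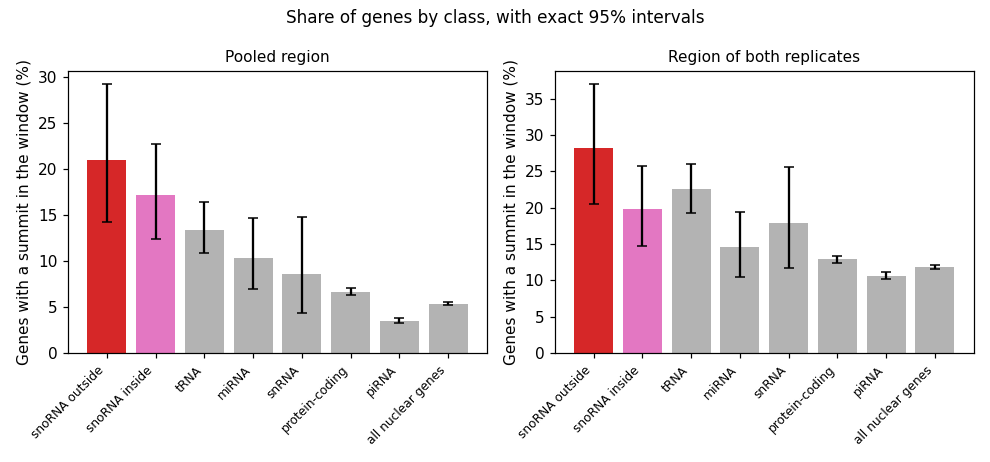
Share of genes with a region summit in the promoter window, in percent, for the pooled list (left) and for both replicate lists (right); bars are gene classes and error bars are exact 95% intervals. Outside snoRNA genes have the tallest bar in both panels, 21.0% and 28.2%, where all nuclear genes have 5.36% and 11.9%.

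The 4 outside genes with an IDR region held ranks from 66 to 179 in the pooled list. Y53F4B.47 had the largest signal of the outside genes in the pooled list, 88.3 at rank 66. Its region had rank 68 and a signal of 55.7 in replicate 1, and rank 66 and a signal of 35.9 in replicate 2, so both replicates placed it alike. The summit lay at -47, within the promoter window of cmtr-1, a gene for an mRNA cap methyltransferase, whose 5′ end was 174 bp away.

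W06H8.17 followed with a pooled signal of 65.9 at rank 129, rank 94 in replicate 1 with 48.6, and rank 146 in replicate 2 with 24.98. Its summit at -228 also lay in the promoter window of W06H8.6, 768 bp away, and W06H8.17 overlaps the non-coding genes W06H8.12 and W06H8.13. T27A8.8, on the X chromosome, had a pooled signal of 59.9 at rank 162, rank 195 in replicate 1 with 35.4, and rank 142 in replicate 2 with 25.2. Its summit was the farthest from the snoRNA among all 26, at -833, and lay in no protein-coding promoter window. F59C6.15 had a pooled signal of 58.1 at rank 179, rank 176 in replicate 1 with 37.0, and rank 369 in replicate 2 with 19.3. Its summit at -29 lay in the window of F59C6.18, 751 bp away. Each replicate thus held a region in the window of each of these 4 genes at rank 369 or better.

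Below the IDR threshold the replicates parted, mostly through lower ranks in replicate 2. Y53F4B.48 had rank 217 in the pooled list, 203 in replicate 1 and 831 in replicate 2, with its summit at -95 in the window of gst-27, a glutathione S-transferase gene. Y74C9A.6 had rank 282 in the pooled list and 228 in replicate 1, with summits at -10 and -29. Replicate 2 had its best region at -947, at rank 1874, and a weaker one next to the gene, at -14 and rank 2581. M7.15, whose summit at -111 lay in the windows of both klc-1, a kinesin light chain gene, and let-70, a ubiquitin-conjugating enzyme gene, had rank 289 in the pooled list, 250 in replicate 1 and 2643 in replicate 2. Y75B12B.12 had rank 318 in the pooled list and 216 in replicate 1 but 14419 in replicate 2. Its summit lay downstream of the annotated 5′ end, at 136, and Y75B12B.11 was the nearest protein-coding gene.

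C26C6.13 went the other way, with rank 175 in replicate 2, 496 in replicate 1 and 327 in the pooled list. F30H5.4 had rank 421 in the pooled list, 308 in replicate 1 and 905 in replicate 2, and stood 9413 bp from the nearest protein-coding 5′ end, that of F30H5.3. F25H2.15 had rank 437 in the pooled list and 516 in replicate 1, with no region in replicate 2. T26A8.6, whose upstream sequence is printed above, had rank 819 in the pooled list, 1167 in replicate 1 and 344 in replicate 2. Its pooled signal was 31.1, near the median of 33.6 over the 26 genes, whose signals ran from 24.6 to 88.3.

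The remaining 14 of the 26 genes had pooled ranks from 528 to 2651. Those in the promoter window of a protein-coding gene were Y17G7B.25 beside ippk-1, an inositol phosphate kinase gene, K04D7.17 beside rack-1, a scaffold protein gene of the ribosome, and R166.10 beside mnk-1, a protein kinase gene. F09G2.14 beside F09G2.2 and attf-2, ZK265.10 beside sre-23, a chemoreceptor gene, and C01B10.48 beside hil-7, a linker histone gene, completed that set. Those in no such window were W01H2.11, T06C12.16, T19B4.8, C46C2.8, R11A5.8, ZK643.9, ZK20.9 and F54E4.17. R11A5.8 had no region in replicate 1, and F54E4.17 had the weakest region of all, at rank 2651.

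Over the 26 genes the median rank was 603 in the pooled list, 669 in replicate 1 and 2281 in replicate 2. Regions of both replicates stood in the windows of 24 genes, with 20 genes at rank 2000 or better in replicate 1 and 12 in replicate 2. The replicate's best summit lay within 100 bp of the pooled summit in 21 genes for replicate 1 and in 16 for replicate 2, and any replicate summit did so in 21 and 19 genes. When the 2689 best regions of a replicate stood in for the pooled list, 24 outside genes had a region in replicate 1 and 18 in replicate 2, where all nuclear genes gave 5.24% and 4.87%.

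**Figure D2:**
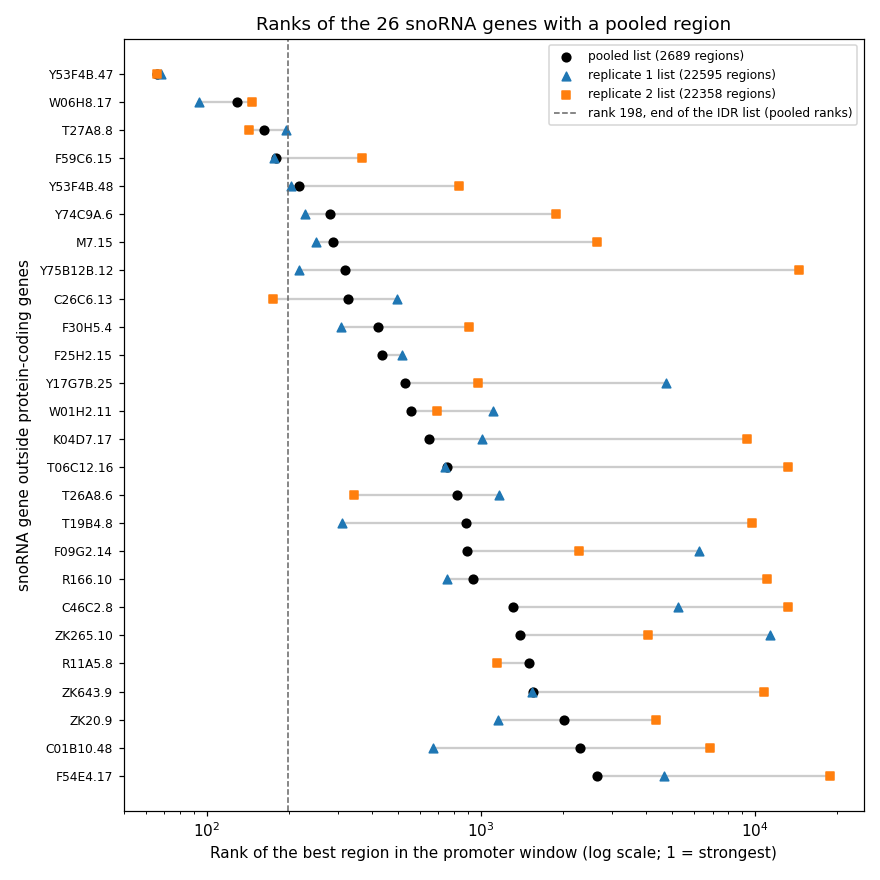
Rank of the best region of each of the 26 outside snoRNA genes with a pooled region, on a log scale with rank 1 the strongest, in the pooled list (circles), replicate 1 (triangles) and replicate 2 (squares); a grey line joins the ranks of a gene and the dashed line marks rank 198. The ranks of Y53F4B.47 coincide at 66 and 68, while those of Y75B12B.12 run from 216 in replicate 1 to 14419 in replicate 2.

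The summits at outside genes lay close to the snoRNA itself. The median distance of the 26 pooled summits was -106.5, with 22 upstream of the 5′ end and a range of -833 to 136. For all 2511 genes with a pooled region the median was -256, and for the 1331 protein-coding genes among them it was -260. Summits within 150 bp of the 5′ end, a distance chosen after the values were seen, were found at 16 of the 26 (61.5%), or 12.9% of the 124 genes, against 1.80% of all nuclear genes. Among genes with a pooled region this share was 33.7% over all genes and 29.4% over protein-coding genes. Inside snoRNA genes with a pooled region had a share of 57.9% and a median distance of -90, so the closeness was not particular to the outside genes.

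Of the 26 summits, 12 lay in a protein-coding promoter window and 14 in none (53.8%), and over the whole pooled list 61.8% of regions lay in none, so this split does not set the members apart. The 14 were 996 to 9455 bp from the nearest protein-coding 5′ end, and 2 of them, those of T27A8.8 and Y74C9A.6, had a q of 0.05 or lower. None of the 26 summits lay within a protein-coding gene. The snoRNA's own 5′ end was nearer than any protein-coding 5′ end for 25 of the 26, the exception being C01B10.48, with hil-7 at 124 bp. For 7 of the 26 the summit also fell in the window of another non-coding gene, piRNA genes left out, such as F59C6.19 beside F59C6.15 and C26C6.14 beside C26C6.13.

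A neighbouring protein-coding promoter went with a higher share. Of the 46 outside genes whose own 5′ end lay in a protein-coding promoter window, 13 had a pooled region (28.3%), and of the 78 others 13 did (16.7%). The same split over the other non-coding genes and pseudogenes, snoRNA genes left out, gave 5.99% of 4324 and 3.85% of 22247. Outside genes far from protein-coding promoters thus stood above this mixed set, though neither difference was tested. The set includes the 15363 piRNA genes, of which 3.48% had a pooled region wherever placed. For tRNA, miRNA and snRNA genes, wherever placed, the shares were 13.4%, 10.3% and 8.53%, and the split was not made for each class.

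**Figure D3:**
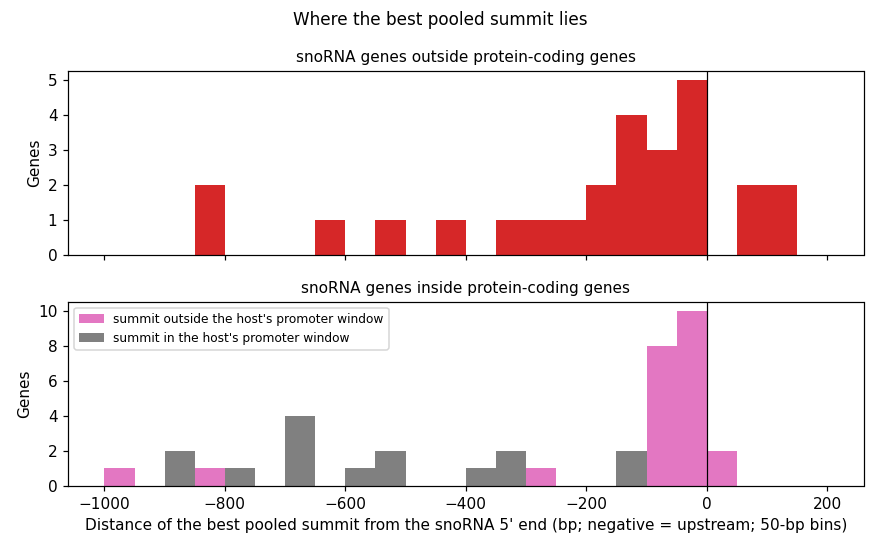
Distance of the best pooled summit from the snoRNA 5′ end, in bp with negative values upstream, in bins of 50 bp, for the 26 outside genes (top) and the 38 inside genes (bottom), counted as genes. Outside summits gather just upstream of the gene with a median of -106.5, and inside summits that lie beyond the host's promoter window gather at the snoRNA too, with a median of -42.

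snoRNA genes inside protein-coding genes had a pooled region nearly as often, and only some of these regions lay at the host's promoter. Of the 222 inside genes 38 had a pooled region (17.1%, interval 12.4 to 22.7%), through 34 regions, and the interval overlapped that of the outside genes. With the best 2689 regions of replicate 2 in place of the pooled list the count was 22, and with those of replicate 1 it was 32. Both replicates gave a region for 44 inside genes (19.8%, interval 14.8 to 25.7%), and 9 had an IDR region (4.05%).

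The summit lay in the promoter window of the snoRNA's own host for 15 of the 38 inside genes, through 11 regions, at a median of -558 from the snoRNA. The strongest was the region of rpl-15, a ribosomal protein gene, which counted for both K11H12.12 and K11H12.13, with a signal of 107.9 at rank 39. F28D1.13 in rps-23 (rank 92), F54E7.10 and F54E7.11 in rps-12 (rank 168), F39B2.14 in tmem-107 (rank 128) and C06A1.9 in cdc-48.1, an ATPase gene (rank 149), were of this kind. For each of these, and for K07C5.11 in nol-56 (rank 195), the summit was nearer to a protein-coding 5′ end than to the snoRNA. That end was not always the host's. The nearest was that of ska-3, at 65 bp, for the region at rps-12 and that of dpm-3, at 257 bp, for the region at rps-23. The summits at rpl-15 and tmem-107 also lay in the windows of K11H12.8 and rps-26.

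For the other 23 inside genes the summit lay outside the host's promoter window, at a median of -42 from the snoRNA, and 20 of them lay within 150 bp of its 5′ end. Of these 23 summits, 22 were nearer to the snoRNA than to any protein-coding 5′ end and 20 lay in no protein-coding promoter window. The window rule favours that nearness here as well. The host was on the opposite strand for 8 of the 23 genes. ZK994.7, inside pxn-1, a peroxidasin gene, was the strongest, with a signal of 66.1 at rank 127, and its summit lay at -82 from the snoRNA and 5608 bp past the 5′ end of pxn-1. A tRNA gene also had its window there. Regions at the snoRNA itself were thus seen for inside genes as for outside genes.

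The word pair printed above was more frequent at snoRNA and snRNA genes than over all genes, though most snoRNA and snRNA genes lacked it. On the gene strand, from 250 bases before the gene to 50 bases into it, CGGAAC followed after 8 bases of any kind by TGTCGG was found at 12 of 124 outside genes (9.68%), 5 of 222 inside genes (2.25%) and 13 of 129 snRNA genes (10.1%). It was found at 0.0551% of protein-coding genes, at none of 612 tRNA genes, and at 0.149% of all 46890 genes. Of the 70 genes with the pair, 53 were not snoRNA genes, and these included 13 snRNA genes, 11 protein-coding genes and a number of piRNA genes. In 16 of the 17 snoRNA genes it began 76 to 60 bases upstream, the exception being W07G1.23 at -207. The words and their spacing were picked from the sequences of these genes after they were seen, so the counts describe the genes and do not test the words. Searched on either strand, the pair was at 0.183% of all genes.

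With up to 1 mismatch in the 12 fixed letters the pair was found at 18 outside genes (14.5%), 17 inside genes (7.66%), 26 snRNA genes (20.2%), 0.135% of protein-coding genes and 0.373% of all genes. It stood from 80 to 55 bases upstream in all 18 outside and in 14 of the 17 inside genes. All 26 snRNA genes with it had it there too, as did 5 of the 27 protein-coding genes that held it. The range encloses the positions already seen for the exact pair at most of these snoRNA genes, so the counts do not test the position. W07G1.23, whose exact pair first occurs at -207, is counted in that range through a further match. The outside genes added by the mismatch were Y53F4B.47, C06E7.95, C18A3.12, K02F6.11, WBGene00220185 and smy-3. CGGAAC alone, on the gene strand, was at 14.5% of outside genes against 2.99% of all genes, and TGTCGG alone was at 18.5% against 3.83%.

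Regions of Y116A8C.19 were counted at snoRNA genes with and without the pair. Of the 17 snoRNA genes with the exact pair 7 had a pooled region (41.2%, interval 18.4 to 67.1%), against 57 of the 329 without it (17.3%). Of the 35 with up to 1 mismatch 14 did (40.0%), against 50 of 311 (16.1%). Inside genes had 9 of 17 (52.9%) against 29 of 205 (14.1%) and outside genes 5 of 18 (27.8%) against 21 of 106 (19.8%), so most of the gap between the shares lay in the inside genes. The 7 summits at genes with the exact pair lay from -84 to -10, next to the pair, and 5 of them were in no protein-coding promoter window. Among outside genes alone the exact pair went with a pooled region at 4 of 12, namely F59C6.15, Y74C9A.6, F25H2.15 and T26A8.6, against 22 of 112 without it (19.6%). Of these 12 genes 7 have a near-identical copy, F59C6.15, F25H2.15 and T26A8.6 among them. Without copies the counts were 1 of 5 (20%) with the pair and 20 of 107 (18.7%) without it. W07G1.23 is among the 5, though most of its sequence recurs nearly unchanged in the longer gene WBGene00220222. Among inside genes the exact pair went with a pooled region at 3 of 5. The numbers are small and the difference was not tested.

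Pair and region often came without each other. Of the 26 outside genes with a pooled region 22 lacked the exact pair, and 8 of the 12 outside genes with it had no pooled region. Of those 8, C16D9.10 and F47G4.9 had a region in each replicate list, F43A11.8 and T08B6.64 in replicate 1 alone, Y67A10A.14 in replicate 2 alone, and W03B1.17, WBGene00220222 and W07G1.23 in none. T08B6.64 came closest, at rank 1702 in replicate 1 with its summit at -60. Beyond snoRNA genes, 6 of the 53 genes with the exact pair had a pooled region, against 2441 of 46491 without it. The pooled count was 2 of 13 for snRNA genes with the pair and 0 of 11 for protein-coding genes with it. Only 2 of the 53 had an IDR region. They were rpr-1, the gene of the RNase P RNA, at rank 102, and the snRNA gene sup-6, at rank 130. A match describes the letters in the window and is no sign of a binding site or a cause.

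**Figure D4:**
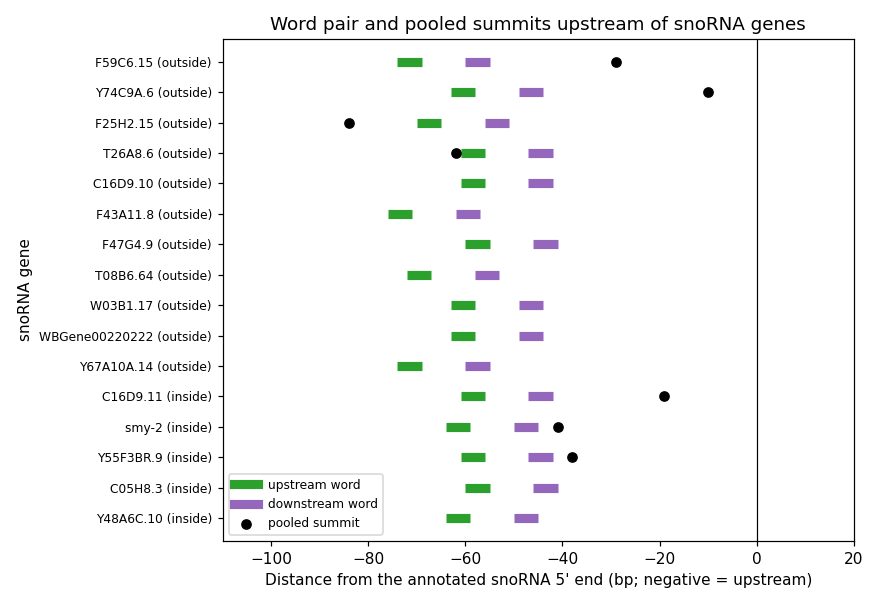
Position of the word pair and of the pooled summit upstream of the 16 snoRNA genes whose exact pair begins 76 to 60 bases before the gene, in bp from the annotated 5′ end; green and purple bars are the upstream and downstream words and dots are pooled summits. The pair stands at nearly the same place in every gene, and the 7 summits lie between -84 and -10.

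The 8-base sequence elements of the strongest regions were counted at the members too. GAGTACAC and CTAGGCCA, found earlier under the IDR regions of these same data, were searched on either strand with up to 1 mismatch in 151 bases around each summit. GAGTACAC was in 0 of the 26 outside regions, for which the exact interval allows up to 13.2%, and CTAGGCCA was in 2 (7.69%), those of T06C12.16 and C46C2.8. In the 198 IDR regions the shares were 35.4% and 36.9%, and in the other 2491 pooled regions 7.27% and 6.22%. Of the 26 regions 22 are not IDR regions, and the counts lie near those of the other pooled regions. The 34 regions of inside genes held them in 5 and 8 cases, K11H12.12 with its neighbour, F28D1.13 and F39B2.14 among those with CTAGGCCA. The 4 outside genes with an IDR region held neither element.

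The RNA itself was searched for its boxes. A strict search for box C (TGATGA in the first 20 bases) with box D (CTGA in the last 20) found 5 outside genes, of which Y74C9A.6 and F30H5.4 had a pooled region. The end mark of H/ACA snoRNAs, ACA in the last 8 bases, was found in 23 outside genes, of which 7 had a pooled region (30.4%), against 19 of 101 without it (18.8%). F30H5.4 met both searches and is among the 7, and the search by these marks thus does not sort it into 1 class. Its sequence shows the boxes of a C/D snoRNA, in capitals, at either end.
F30H5.4, chrIII:502804-502889, plus strand: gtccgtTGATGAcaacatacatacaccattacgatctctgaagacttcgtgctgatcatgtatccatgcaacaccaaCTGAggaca

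Some of the outside genes are near-identical copies, and how the authors assigned reads to such copies is not given in the sources used here. With identity of 80% or more as the limit, 12 outside genes had a copy among the snoRNA genes, and 5 of the 12 had a pooled region. F59C6.15 matched the outside genes Y67A10A.14 at 97.1%, F25H2.15 at 94.9% and F43A11.8 at 87.9%, which carried the exact pair as it did, and the inside gene T19C4.11 at 88.2%, which had the pair with 1 mismatch only. Of these only F59C6.15 and F25H2.15 had a pooled region. The 100 bases upstream were less alike, at 77% between F59C6.15 and F25H2.15 and 61% between F59C6.15 and F43A11.8. C46C2.8 and ZK643.9, with pooled regions, had copies in C53B7.8 and K09E9.5 without one. Without the 12 genes, 21 of 112 outside genes had a pooled region (18.8%).

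The 11 genes with a region of each replicate but none in the pooled list all had a rank of 8148 or worse in at least 1 replicate. M163.14 was the best by its worse rank, with 8148 in replicate 1 and 5351 in replicate 2. C06E7.95 followed with 7319 and 8700, then K11D9.10 with 9933 and 8172, C41C4.11 with 9342 and 10486, and T28B8.11 with 10590 and 11394. Their 2 summits often lay apart, as at C06E7.95, where they were at 35 and -623. W03C9.9 had rank 2311 in replicate 2, with its summit at 42, and rank 21733 in replicate 1, with its summit at -938.

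Genes for the core proteins, assembly and trimming of snoRNA particles had pooled regions at 5 of the 24 that matched the annotation (20.8%), against 6.66% of protein-coding genes and 5.36% of all nuclear genes. Genes of Integrator and SNAPc, which act on snRNA genes, had them at 2 of 11 and 0 of 7. Among the 24, the core lists gave 2 of 4 for box C/D and 1 of 3 for H/ACA particles. Assembly gave 1 of 3 and trimming 1 of 14. Over all these lists 7 of the 42 matched genes had a pooled region (16.7%). The lists were written with earlier results of these data known, so the shares do not test an excess over the background. The core of box C/D particles held both IDR regions among them. fib-1, the gene of fibrillarin, had a signal of 69.7 at rank 117 with its summit at -106, with rank 181 in replicate 1 and 96 in replicate 2. nol-56, which encodes another core protein and hosts the snoRNA gene K07C5.11, had 55.2 at rank 195. The other 2 core genes of this list, nol-58 and snu-13, had no pooled region.

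The further genes of the pathway lists with a pooled region lay below the IDR threshold. ints-4, of the Integrator complex that cuts the 3′ ends of snRNAs, was the first region below it, at rank 199 with a signal of 54.9, but its rank was 80 in replicate 1 and 19603 in replicate 2. ints-8, of the same complex, had rank 250, with 449 and 209 in the replicates. ruvb-1, an ATPase gene of particle assembly, had rank 1306, and the H/ACA core gene Y48A6B.3 had 2127. exos-3, of the exosome that trims RNA ends, had rank 1292. That region also lay in the window of the outside gene F59C6.15, at -703, as the weaker pooled region there.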

How the data were processed

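Chromatin immunoprecipitation with sequencing was measured in 2 replicates of 1 group, grouped by the labels. Per the notes deposited with the samples, the authors called each replicate's list on its alignment with a control, called the pooled list on both alignments, and derived the IDR list from these. Neither aligner nor caller nor IDR threshold is stated in the labels or notes. The deposited files hold a signal value per region, whose scale is not given, and the authors' −log10 q-value. The signal ranked regions within a list, and the −log10 q-value gave the count at 0.05. The ce10 lists were not used, since builds were not mixed. Files hold no read counts, so depth is unknown.

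Genes came from Ensembl release 115 and sequence from the RefSeq genome, both WBcel235. Counts over genes have exact 95% intervals, and no test was made. The window count was tested on simulated data, where it recovered 200 of 200 planted genes. Copies were found by edit distance (edlib 1.3.9.post1). Scripts ran under Python 3.11.15 with SciPy 1.17.1 (intervals), Matplotlib 3.10.9 (figures), NumPy 2.4.6 and pandas 2.3.3.

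The members and gene lists were chosen with earlier results of these data known. Of 60 symbols in the pathway lists 42 matched the annotation. Named were outside genes with an IDR region, the 25 best by pooled rank, the 5 best without a pooled region, 8 inside genes with an IDR region, the nearest protein-coding genes and pathway genes with a region. F54E4.17, K07C5.11, W03C9.9 and genes named for the word pair, a copy, a box or the lack of a region were named after their values were seen. Alternatives changed the window, the placing of regions, the strand rule, the lists and the copies.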

Additional observations from a re-analysis of the deposited data

How the results depend on the processing

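Over 7 counts and 10 settings, 66 alternatives were computed, of which 51 stayed within 1.5 times the count reported and 15 did not. The pooled count of outside genes, 26, ranged from 18 (best regions of replicate 2) to 34 (outside judged on the same strand, 162 genes), and was 8 with a q of 0.05 or lower, a setting added after the data were seen, as was leaving out copies. At that q the inside count fell from 38 to 10 and the outside count in no protein-coding window from 14 to 2. The stronger 99 IDR regions gave 1 outside gene where all gave 4, and 3 inside genes where all gave 9. A window of 500 bp upstream to 100 bp downstream gave 4 inside genes with an IDR region.

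For a region of both replicates, that window gave 20 outside genes where the main window gave 35, and 24 inside genes where it gave 44. A window reaching 2000 bp upstream gave 80 inside genes. The best 5000 regions of each replicate gave 13 outside and 18 inside genes, against 2.16% of all nuclear genes. With 1 replicate left out, these counts ran from 52 to 60 for outside genes and from 71 to 94 for inside genes, since a region in only the other list was then enough. The 71 inside genes of replicate 2 did not stand clear of the background, since the interval of their share held the 29.2% of all nuclear genes. For the 94 of replicate 1 the interval lay above the 28.9% of all nuclear genes. With 1 replicate left out, the inside pooled count ran from 22 to 32. In each other result the count without either replicate stayed within 1.5 times. Causes were not tested. No paired analysis was possible because there is 1 group. Depth is unknown, so how far it limits the counts cannot be given.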
